A study of Caenorhabditis elegans with 12 samples.

Results

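The genes described here are 10 Caenorhabditis elegans genes whose names record a response downstream of DAF-16 or a change in daf-2 mutants: dod-3, dod-17, dod-19, dod-21, dod-22, dod-23, dod-24, dct-17, pud-3 and pud-4. They were taken by symbol from the 46748 genes of the count table, and 9 of them were among the 14567 genes with enough reads to test (all but dod-21). They were chosen by name with their levels and fold changes between the 4 groups of these same libraries already known, and no single contrast or threshold is recorded for the choice. Every fold change and p-value of these genes below is therefore a description of the 12 libraries and not independent evidence. RNA was sequenced from whole N2 hermaphrodites, the wild-type strain, under the L4440 perturbation (the empty RNAi vector) or the bcat-1 perturbation (RNAi against the branched-chain aminotransferase gene bcat-1). The ages were 1 day and 2 days, and the labels do not say from which event days were counted. There were 4 groups of 3 libraries: L4440 day 1, bcat-1 day 1, L4440 day 2 and bcat-1 day 2. Replicate numbers 1 to 3 follow the order of deposit, only name libraries and were not used to pair them. The labels do not say whether libraries came from separate cultures, so p-values measure only the spread between these samples.

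DAF-16 is the FOXO transcription factor of the worm insulin pathway, and the insulin receptor DAF-2 restrains it by way of AKT kinases that keep it out of the nucleus. When insulin signalling is low, DAF-16 enters the nucleus, some genes rise and others fall, and the worms live longer. The symbol dod stands for downstream of DAF-16, and dod-3 belongs to the genes known to rise when insulin signalling is low, whereas dod-17 to dod-24 belong to those known to fall. The symbol pud stands for protein upregulated in daf-2, and dct for DAF-16 controlled, germline tumour affecting. Several of these genes, dod-17, dod-21, dod-22, dod-24 and dct-17, encode CUB-like domain proteins, a family whose members respond to bacterial pathogens in the intestine.

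The libraries held 29291731 to 43855795 counts. Ribosomal RNA genes took 0.0724% to 2.49% of counts in 10 libraries. Their share was 6.74% in replicate 3 of L4440 day 2 and 41.5% in replicate 3 of bcat-1 day 2. Levels are given as CPM, a gene's counts scaled to a common library size. The L4440 libraries held 170 ± 12.4 CPM of the target bcat-1 at day 1 and 138 ± 20.3 CPM at day 2 (mean ± SD, n = 3). The day 1 bcat-1 libraries held 21.5 ± 4.85 CPM of it, and those of day 2 held 13.9, 17.3 and 329 CPM. In this gene the library labelled bcat-1 day 2 replicate 3, with 329 CPM, thus goes against its label. The reason was not tested. Results below include this library unless stated, and some are also given without it. All 10 intestine markers, 10 epidermis markers, 10 muscle markers, 10 neuron markers and 10 germline markers had counts in every group, whereas 11 sperm marker genes summed to at most 0.817 CPM in any library.

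Per kilobase of exon, the level of the 10 genes spanned several orders. The highest were dod-23, with a median over the 12 libraries of 196 CPM per kb (range 170 to 237), and dod-19, with 156 CPM per kb (68.7 to 280). Then came pud-3 at 27.7 (4.25 to 102), dod-24 at 19.7 (8.42 to 53.2), pud-4 at 6.95 (0.824 to 29.6) and dod-3 at 5.46 CPM per kb (2.00 to 30.5). The remaining genes were low, with medians of 3.84 for dct-17, 2.04 for dod-17, 1.89 for dod-22 and 0.0213 CPM per kb for dod-21. From dod-23 down to dod-22 the ranges of neighbouring ranks overlapped, so this order does not hold in every library. In bcat-1 day 2 replicate 2, dod-19 stood at 274 and dod-23 at 192 CPM per kb. In bcat-1 day 1 replicate 2, pud-3 stood at 4.25 and dod-24 at 11.2 CPM per kb.

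**Figure D1:**
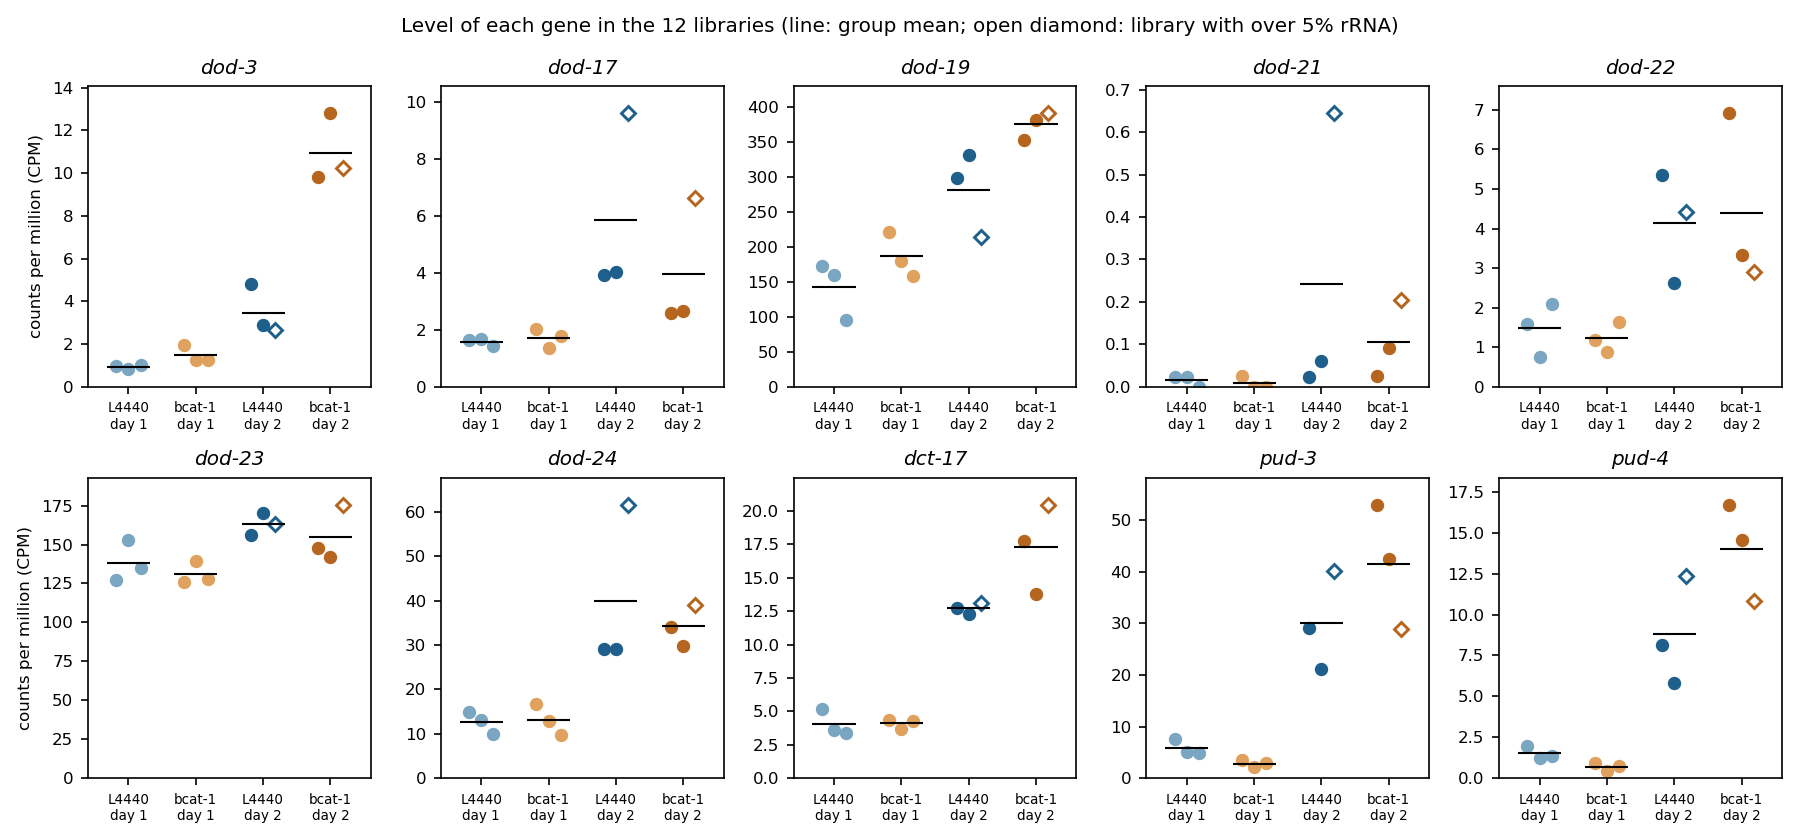
Level of each of the 10 genes in CPM (vertical axes, each from 0, scaled per gene) in the 12 libraries by group (horizontal axis), with points for libraries, lines for group means and open diamonds for the 2 libraries rich in rRNA (over 5% of counts). In dod-3 all 4 groups stand apart, pud-3 and pud-4 show the same pattern, and dod-17, dod-21 and dod-24 are highest in the L4440 day 2 library drawn as a diamond.

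The gene dod-3 (WBGene00016052, chromosome V, 2730622 to 2731098, minus strand in WBcel235) had the largest difference between bcat-1 RNAi and L4440 among the 9 tested genes at day 2 and averaged over both days, whereas at day 1 pud-3 and pud-4 differed more. Day 1 gave 0.953, 0.840 and 1.04 CPM under L4440 and 1.94, 1.28 and 1.24 CPM under bcat-1 RNAi (replicates 1, 2 and 3 in order, here and below). In the day 2 libraries the values were 4.81, 2.90 and 2.65 CPM (L4440) and 9.83, 12.802 and 10.2 CPM (bcat-1 RNAi). Its 4 groups did not overlap anywhere, in the order L4440 day 1, bcat-1 day 1, L4440 day 2 and bcat-1 day 2. The day 2 difference was 3.16-fold (log2 1.66, SE 0.25, adjusted p = 0.0117 by edgeR's quasi-likelihood test), and averaged over both days it was 2.24-fold (log2 1.16, SE 0.18, adjusted p = 0.0153). At day 1 the log2 difference of 0.67 (SE 0.27, adjusted p = 1.00) did not pass. Between days, dod-3 rose 3.69-fold on L4440 (log2 1.88, SE 0.26, adjusted p = 0.00460) and 7.34-fold on bcat-1 RNAi (2.88, SE 0.26, adjusted p = 1.14e-04). The RNAi difference was larger at day 2 than at day 1 by 0.99 on the log2 scale (SE 0.36), and this difference between days did not pass (unadjusted p = 0.0184, adjusted p = 1.00).

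The age rises of dod-3 passed in each of the 21 alternative fits, whereas its RNAi calls did not. The day 2 call was lost without L4440 day 2 replicate 2 (adjusted p = 0.0834), without bcat-1 day 2 replicate 2 (0.0711) or without L4440 day 2 replicate 3 (0.0721). Without both libraries rich in rRNA the day 2 value was 1.55 (SE 0.29, adjusted p = 0.103). The averaged call was lost without L4440 day 1 replicate 1 (adjusted p = 0.0591) or 2 (0.0699), bcat-1 day 1 replicate 1 (0.0509), or bcat-1 day 2 replicate 2 (0.0549). In every fit the value itself stayed positive, between 1.501 and 1.981 at day 2 and between 1.04 and 1.32 averaged over both days.

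The pair pud-3 and pud-4 rose most from day 1 to day 2 among the 9 tested genes. Their products belong to a small nematode family with an aegerolysin-like fold, first seen as proteins of higher abundance in daf-2 mutants. The gene pud-3 (WBGene00017501, V, 2324634 to 2325152, minus strand) and the gene pud-4 (WBGene00017498, V, 2326678 to 2327282, plus strand) lie 1525 bases apart on opposite strands. On L4440, pud-3 stood at 7.55, 5.06 and 4.80 CPM at day 1 and at 29.1, 21.2 and 40.2 CPM at day 2. On bcat-1 RNAi it stood at 3.47, 2.21 and 2.88 CPM at day 1 and at 52.9, 42.4 and 28.9 CPM at day 2. All 6 day 2 libraries lay above all 6 day 1 libraries, all bcat-1 libraries of day 1 lay below all L4440 libraries of day 1, and the treatments overlapped at day 2. That overlap came from bcat-1 day 2 replicate 3 alone, the library whose bcat-1 level goes against its label. The neighbour pud-4 stood at 2.00, 1.22 and 1.38 CPM on L4440 day 1 and at 0.918, 0.465 and 0.770 CPM on bcat-1 day 1. At day 2, pud-4 measured 8.16, 5.84 and 12.3 CPM under L4440 and 16.7, 14.6 and 10.8 CPM under bcat-1 RNAi. Its groups fell in the same order as those of pud-3, with overlap between the treatments at day 2, again from bcat-1 day 2 replicate 3 alone, and no other overlap.

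From day 1 to day 2 on L4440, pud-3 rose 5.17-fold (log2 2.37, SE 0.29, adjusted p = 0.00235, edgeR) and pud-4 5.71-fold (2.51, SE 0.32, adjusted p = 0.00272). On bcat-1 RNAi, pud-3 rose 14.5-fold (3.86, SE 0.31) and pud-4 19.4-fold (4.28, SE 0.35), each with adjusted p = 8.72e-05. These rises passed in each of the 21 alternative fits. The difference between treatments had opposite signs at the 2 ages. At day 1 it was -1.02 (SE 0.30, unadjusted p = 0.00524) for pud-3 and -1.09 (SE 0.35, unadjusted p = 0.00894) for pud-4, and neither passed (adjusted p = 1.00). At day 2 it was 0.46 (SE 0.27, adjusted p = 0.763) for pud-3 and 0.68 (SE 0.29, adjusted p = 0.649) for pud-4. Tested directly, the change of the RNAi difference between days was 1.49 (SE 0.40, unadjusted p = 0.00329) for pud-3 and 1.77 (SE 0.45, unadjusted p = 0.00222) for pud-4. Both had an adjusted p of 1.00 over all genes, so neither passed. Without both libraries rich in rRNA, which include the one whose bcat-1 level goes against its label, this change was 1.96 (SE 0.34) and 2.26 (SE 0.41), each with adjusted p = 0.516, and the day 2 differences were 0.92 and 1.15.

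Per length of exon, pud-3 stood at 2.90 to 5.16 times the level of pud-4 over the 12 libraries. The ratio averaged 4.13 ± 0.374 on L4440 day 1, 4.44 ± 0.622 on bcat-1 day 1, 3.78 ± 0.217 on L4440 day 2 and 3.17 ± 0.272 on bcat-1 day 2 (mean ± SD, n = 3). The 3 ratios of bcat-1 day 2, from 2.90 to 3.45, lay below those of the other 9 libraries, which ran from 3.53 up. The day 1 ratios on bcat-1 RNAi rest on only 16 to 36 counts of pud-4. Over the 12 libraries the log2 levels of the pair had a Pearson r of 0.997. The copies are similar and how multiply mapped reads were handled is not given in the sources used here, so the split of shared reads between them is uncertain. The other 4 annotated pud genes (pud-1.1, pud-1.2 and 2 copies annotated as pud-2.2) had at most 1 count in any library and were not tested.

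**Figure D2:**
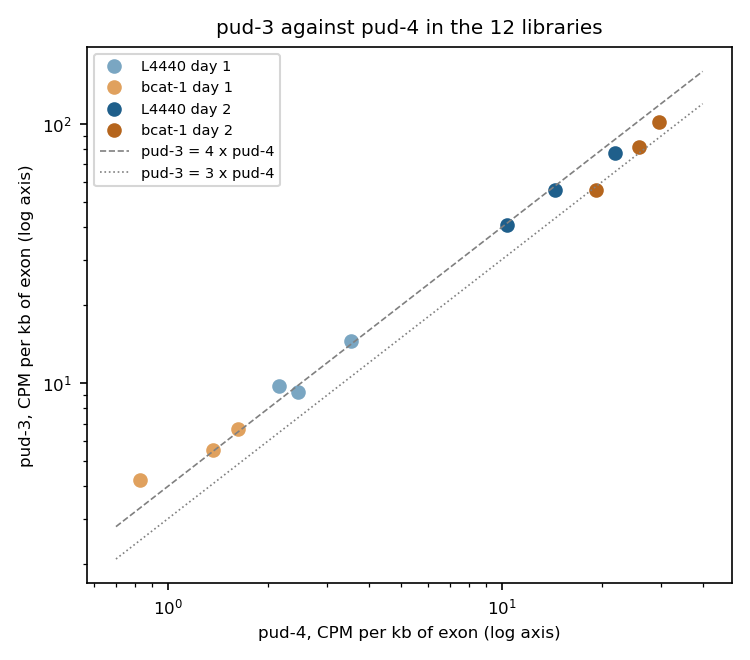
Level of pud-3 (vertical axis) against pud-4 (horizontal axis) in CPM per kilobase of exon, both on log axes, with 1 point per library coloured by group and lines at ratios of 3 and 4. The points form a single line from the bcat-1 day 1 libraries at the bottom to the bcat-1 day 2 libraries at the top, where they approach the ratio of 3.

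The CUB-like gene dct-17 (WBGene00009431, V, 13727761 to 13730784, minus strand) rose with age on both treatments. Day 1 gave 5.22, 3.63 and 3.39 CPM under L4440 and 4.36, 3.69 and 4.29 CPM under bcat-1 RNAi. In the day 2 libraries the values were 12.7, 12.3 and 13.1 CPM (L4440) and 17.7, 13.8 and 20.4 CPM (bcat-1 RNAi). The treatments overlapped at day 1 and not at day 2, and the ages did not overlap. The rise was 3.11-fold on L4440 (log2 1.64, SE 0.19, adjusted p = 0.00137, edgeR) and 4.20-fold on bcat-1 RNAi (2.07, SE 0.19, adjusted p = 1.14e-04), and both passed in each of 21 alternative fits. The RNAi difference of 0.44 at day 2 (SE 0.18, adjusted p = 0.612) did not pass, and at day 1 it was 0.01 (SE 0.19).

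The abundant genes dod-19 and dod-23 moved less. On L4440, dod-19 (WBGene00022644, V, 411782 to 414759, minus strand) stood at 173, 160 and 95.9 CPM at day 1 and at 299, 332 and 214 CPM at day 2. On bcat-1 RNAi dod-19 stood at 221, 181 and 159 CPM at day 1 and at 354, 382 and 391 CPM at day 2. Within each treatment the ages did not overlap, and the bcat-1 libraries of day 2 were the 3 highest of all. The rise of dod-19 was 1.97-fold on L4440 (log2 0.98, SE 0.22, adjusted p = 0.0403, edgeR) and 2.01-fold on bcat-1 RNAi (1.01, SE 0.22, adjusted p = 0.0236). The RNAi difference was 0.39 (SE 0.21) at day 1 and 0.41 (SE 0.21) at day 2, and neither passed (adjusted p = 1.00 and 0.747). Without both libraries rich in rRNA the day 2 difference of dod-19 was 0.21 (SE 0.25). The rise on L4440 missed the threshold, with adjusted p from 0.0514 to 0.115, without any of the 3 L4440 day 1 libraries, bcat-1 day 1 replicate 2 or 3, L4440 day 2 replicate 1 or 2, or bcat-1 day 2 replicate 2. The rise on bcat-1 RNAi missed it, with adjusted p from 0.0513 to 0.111, without replicate 2 or 3 of bcat-1 at either day.

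The gene dod-23 (WBGene00009898, II, 8398161 to 8399164, minus strand) varied least. It stood at 127, 153 and 135 CPM on L4440 day 1 and at 126, 139 and 128 CPM on bcat-1 day 1. The day 2 levels were 156, 170 and 163 CPM (L4440) and 148, 142.3 and 175 CPM (bcat-1 RNAi). Within each treatment the ages did not overlap. The log2 value of day 2 over day 1 was 0.24 (SE 0.10) on both treatments, and it did not pass on L4440 (adjusted p = 0.221) or on bcat-1 RNAi (adjusted p = 0.212). The RNAi difference was -0.08 (SE 0.10) at day 1 and -0.07 (SE 0.10) at day 2.

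The other 4 genes, dod-21, dod-24, dod-22 and dod-17, all encode CUB-like domain proteins and lie in 1 stretch of 41.6 kb on chromosome IV, from 12936738 to 12978343. At day 1, dod-24 (WBGene00007875, 12940106 to 12941354, minus strand) measured 14.8, 13.2 and 9.92 CPM under L4440 and 16.6, 12.96 and 9.75 CPM under bcat-1 RNAi. In the day 2 libraries the values were 29.1, 29.0 and 61.6 CPM (L4440) and 33.98, 29.7 and 38.9 CPM (bcat-1 RNAi). The ages did not overlap, the treatments did at both ages, and L4440 day 2 replicate 3 stood well above the rest. The rise of dod-24 was 3.15-fold on L4440 (log2 1.65, SE 0.30, adjusted p = 0.0163, edgeR) and 2.60-fold on bcat-1 RNAi (1.38, SE 0.29, adjusted p = 0.0230). It missed the threshold on L4440 without L4440 day 1 replicate 2 (adjusted p = 0.0792) or 3 (0.0687). On bcat-1 RNAi the rise of dod-24 missed it without bcat-1 day 1 replicate 2 (0.104) or 3 (0.106) or bcat-1 day 2 replicate 3 (0.0542). The RNAi difference of dod-24 was 0.05 (SE 0.29) at day 1 and -0.22 (SE 0.29) at day 2.

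The gene dod-17 (WBGene00010745, 12976303 to 12978343, plus strand) showed the same outlying libraries. It stood at 1.64, 1.68 and 1.44 CPM on L4440 day 1 and at 2.04, 1.37 and 1.78 CPM on bcat-1 day 1. The day 2 levels were 3.93, 4.02 and 9.60 CPM (L4440) and 2.60, 2.66 and 6.63 CPM (bcat-1 RNAi). In each day 2 group replicate 3 was the high library, and the ages did not overlap. The rise was 3.65-fold on L4440 (log2 1.87, SE 0.42, adjusted p = 0.0436, edgeR), and the value of 1.17 on bcat-1 RNAi (SE 0.42, adjusted p = 0.159) did not pass. The call on L4440 was lost, with adjusted p from 0.0503 to 0.157, without any 1 of the 6 day 1 libraries or without L4440 day 2 replicate 1 or 3. Without both day 2 libraries rich in rRNA, which are the 2 high ones, the rise of dod-17 was 1.29 on L4440 (SE 0.20, adjusted p = 0.0136) and 0.58 on bcat-1 RNAi (SE 0.20, adjusted p = 0.160). In the same fit the rise of dod-24 was 1.17 on L4440 (SE 0.22, adjusted p = 0.0298) and 1.26 on bcat-1 RNAi (SE 0.22, adjusted p = 0.0111). For dod-17, dod-21 and dod-24 the 2 libraries rich in rRNA had the highest CPM of their day 2 groups. Each of these genes was nonetheless lower in the library with 41.5% rRNA than in that with 6.74%. The part of rRNA in their levels was not tested beyond these fits.

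The gene dod-22 (WBGene00010125, 12965374 to 12967392, plus strand) stood at 1.596, 0.752 and 2.104 CPM on L4440 day 1 and at 1.17, 0.872 and 1.64 CPM on bcat-1 day 1. At day 2, dod-22 measured 5.35, 2.63 and 4.41 CPM under L4440 and 6.91, 3.34 and 2.91 CPM under bcat-1 RNAi. All day 2 libraries lay above all day 1 libraries, and the treatments overlapped at both ages. Its rise under bcat-1 RNAi was 3.61-fold (log2 1.85, SE 0.44, adjusted p = 0.0389, edgeR), and the value of 1.49 on L4440 (SE 0.43, adjusted p = 0.0932) did not pass. The call on bcat-1 RNAi was lost, with adjusted p from 0.0507 to 0.186, without any of the 3 bcat-1 day 1 libraries, bcat-1 day 2 replicate 1 or 2, L4440 day 1 replicate 1 or L4440 day 2 replicate 3. The value on L4440 passed without L4440 day 2 replicate 2 (adjusted p = 0.0429) or bcat-1 day 2 replicate 1 (0.0438), and by DESeq2 (0.0155). In its libraries dod-22 followed the summed level of a list of 10 moulting genes, which act in cuticle renewal. The summed level of that list was 106 to 164 CPM on L4440 day 1, 95.7 to 180 CPM on bcat-1 day 1, 133 to 376 CPM on L4440 day 2 and 147 to 386 CPM on bcat-1 day 2. With that sum dod-22 had a Pearson r of 0.79 over the 12 libraries and 0.71 after group means were removed, whereas the other 8 tested genes had values from -0.54 to 0.31 after group means were removed. The list was not uniform: of its 9 tested genes, 7 had positive log2 values with age on each treatment. The 1 that passed by edgeR, mlt-7 on bcat-1 RNAi, fell, unlike dod-22. Its log2 value ran from -0.740 to -0.492 without 1 library, and the call was lost in 10 of these 12 fits. The part of moulting RNA in the level of dod-22 was not tested.

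The gene dod-21 (WBGene00007873, 12936738 to 12937988, plus strand) was too low to test. Its counts were 1, 1 and 0 on L4440 day 1, 1, 0 and 0 on bcat-1 day 1, 1, 2 and 19 on L4440 day 2 and 1, 4 and 4 on bcat-1 day 2. Most of its reads thus came from L4440 day 2 replicate 3, the library that was also highest for dod-17 and dod-24. A library with 0 counts could still hold up to 3 counts of its total, a limit that covers counting error only.

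Within the stretch extended by 10 kb on each side lay 17 protein-coding genes, of which 8 were tested, dod-24, dod-22 and dod-17 among them. Day 2 was above day 1 at adjusted p under 0.05 for 4 of the 8 on L4440 and 5 of the 8 on bcat-1 RNAi, beside 1.01% and 2.01% of all tested genes. Without the dod genes, which were picked with these data known, the counts were 2 and 3 of 5. F55G11.4, which lies 699 bases from dod-17, rose 1.85 on L4440 (SE 0.24, adjusted p = 0.00296, edgeR) and 2.68 on bcat-1 RNAi (SE 0.24, adjusted p = 1.14e-04) on the log2 scale, and both calls held in 21 alternative fits. K10D11.3, on the other side of dod-17, rose 1.16 on bcat-1 RNAi (SE 0.18, adjusted p = 0.00437) and had 0.57 on L4440 (adjusted p = 0.115). F55G11.8, which lies 728 bases from dod-22, had 0.83 on L4440 (adjusted p = 0.0484) and 0.77 on bcat-1 RNAi (adjusted p = 0.0495). Both F55G11.8 calls were lost without any 1 of the 6 day 1 libraries or without L4440 day 2 replicate 1 or 3, and the call on bcat-1 RNAi also without bcat-1 day 2 replicate 1 or 3, with adjusted p up to 0.201 and 0.237 over all alternatives. F55G11.2 had 1.53 on L4440 (SE 0.46, adjusted p = 0.101) and 0.91 on bcat-1 RNAi (SE 0.47, adjusted p = 0.330), and F55G11.1 had 0.04 and -0.64. No annotated gene overlapped any of the 10 genes.

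**Figure D3:**
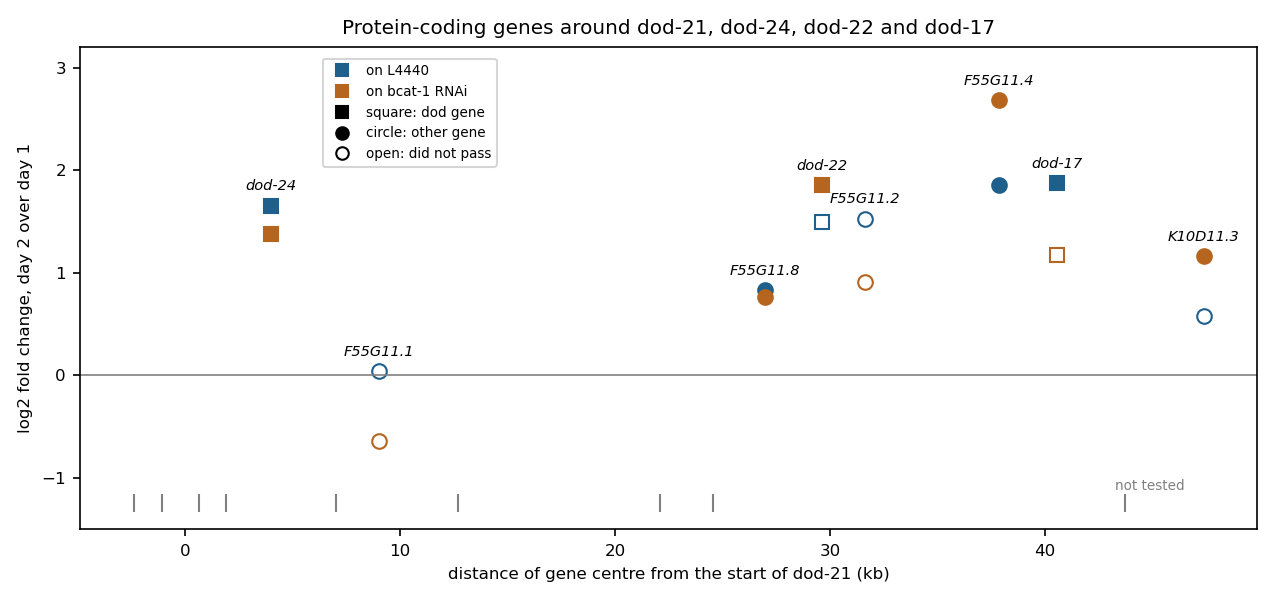
Change from day 1 to day 2 (vertical axis, log2 fold change) of protein-coding genes by distance of the gene centre from the start of dod-21 (horizontal axis, kb), with squares for the dod genes, circles for other genes, filled symbols for adjusted p under 0.05 and ticks for genes not tested. All genes drawn lie above 0 on both treatments except F55G11.1, at 0.04 on L4440 and -0.64 on bcat-1 RNAi.

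Set side by side, day 2 was above day 1 in all 9 tested genes on both treatments, with no overlap of the libraries. Groups did not overlap in that direction in 11.7% of all tested genes under L4440 and 11.1% under bcat-1 RNAi. They did not overlap in the opposite direction in 13.1% and 9.95%. On L4440, 7 of the 9 passed, all higher, and on bcat-1 RNAi also 7 of the 9, all higher. The genes that passed on L4440 were dod-3, dod-17, dod-19, dod-24, dct-17, pud-3 and pud-4, and on bcat-1 RNAi dod-22 took the place of dod-17. Over all 14567 genes, 2.3% passed on L4440 (1.01% higher and 1.29% lower) and 4.07% on bcat-1 RNAi (2.01% higher and 2.06% lower). The median log2 value of the 9 genes was 1.65 on L4440 and 1.85 on bcat-1 RNAi, against -0.00101 and -0.00501 over all tested genes. Because the genes were picked with these data known, nothing is read from their excess over these shares. The comparisons on L4440 and on bcat-1 RNAi share no library, but both come from 1 fit in which all 12 libraries set the spread. Their calls are therefore not independent. Only dod-3, dct-17, pud-3 and pud-4 passed on both treatments in each of 21 alternative fits.

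**Figure D4:**
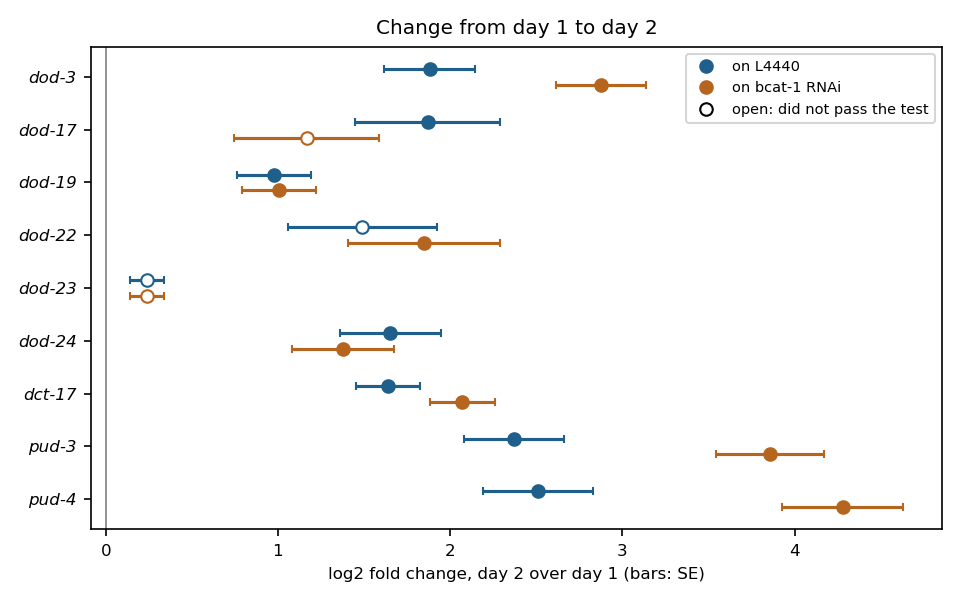
Change from day 1 to day 2 (horizontal axis, log2 fold change with SE bars) of the 9 tested genes, in blue on L4440 and in orange on bcat-1 RNAi, with filled points for adjusted p under 0.05. All points lie right of 0, from 0.24 for dod-23 to 4.28 for pud-4 on bcat-1 RNAi.

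Markers of several tissues also moved with age in these libraries, most of those called by edgeR in the opposite direction. Over all tested genes 1.29% fell and 1.01% rose on L4440, and 2.06% fell and 2.01% rose on bcat-1 RNAi. The marker lists were chosen with earlier results of these data known. On L4440, 3 of 10 muscle markers fell and none rose, and on bcat-1 RNAi 4 of 10 fell, among them tnt-2, a troponin T gene (log2 -0.95, SE 0.15, adjusted p = 0.00752 on L4440, and -1.11, SE 0.15, adjusted p = 0.00164 on bcat-1 RNAi). Their summed level went from 2871 to 3314 CPM at day 1 to 1926 to 2691 CPM at day 2 on L4440, and from 3054 to 3602 CPM to 1776 to 2325 CPM on bcat-1 RNAi. Intestine markers, the tissue in which many dod genes are known to act, summed to 666 to 763 CPM at day 1 and 649 to 714 CPM at day 2 on L4440. On bcat-1 RNAi the intestine sum was 652 to 808 CPM at day 1 and 601 to 695 CPM at day 2. Of these 10 markers, pept-1, a peptide transporter, fell on L4440 (-0.59, SE 0.13, adjusted p = 0.0394), and act-5 (-0.55, SE 0.10, adjusted p = 0.0129) and vha-6 (-0.55, SE 0.12, adjusted p = 0.0212) fell on bcat-1 RNAi. The pept-1 call was lost without any 1 of the 3 L4440 day 1 libraries, bcat-1 day 1 replicate 2 or 3, or L4440 day 2 replicate 1 or 3, with adjusted p up to 0.250 over all alternatives. The calls of act-5 and vha-6 were lost without bcat-1 day 1 replicate 2 or 3, and that of vha-6 also without bcat-1 day 2 replicate 2, with adjusted p up to 0.150 and 0.235. The epidermal collagen gene col-19 fell on L4440 (-1.13, SE 0.17, adjusted p = 0.00646) and on bcat-1 RNAi (-1.29, SE 0.17, adjusted p = 0.00156), the 1 edgeR call among 10 epidermis markers on each treatment. It does not stand for the list, in which 7 of 10 had positive log2 values on L4440 (median 0.14) and 4 of 10 on bcat-1 RNAi (median -0.07). DESeq2 called sqt-3, col-19 and dpy-7 on L4440 and col-19 on bcat-1 RNAi. Of 9 tested embryo markers, 2 fell and 1 rose on L4440, and 2 fell on bcat-1 RNAi. Those that fell were the endoderm factor gene end-1 (-2.29, SE 0.34, adjusted p = 0.00648 on L4440, and -1.62, SE 0.33, adjusted p = 0.0175 on bcat-1 RNAi) and the homeobox gene ceh-51 (-1.84, SE 0.26, adjusted p = 0.00549, and -1.41, SE 0.26, adjusted p = 0.0103). The L4440 calls of col-19, end-1 and ceh-51 and the bcat-1 RNAi call of col-19 passed in each of 21 alternative fits. On bcat-1 RNAi the end-1 call was lost without bcat-1 day 1 replicate 1 or 3, bcat-1 day 2 replicate 1, or both libraries rich in rRNA, with adjusted p up to 0.0762 over all alternatives. The T-box gene tbx-37 rose on L4440 (1.902, SE 0.42, adjusted p = 0.0409), a call lost without any 1 of the 6 day 1 libraries or without L4440 day 2 replicate 1 or 3, with adjusted p up to 0.178. Summed embryo markers were 181 to 183 CPM on L4440 day 1, 174 to 214 CPM on bcat-1 day 1, 174 to 179 CPM on L4440 day 2 and 160 to 169 CPM on bcat-1 day 2. No neuron or germline marker passed with age by edgeR or DESeq2, with 2 and 0 of 10 at an unadjusted p under 0.05 on L4440 and 1 and 1 on bcat-1 RNAi. Neuron markers had positive log2 values, the direction of the dod, dct and pud genes, in 8 of 10 on L4440 (median 0.45) and 10 of 10 on bcat-1 RNAi (median 0.26). For germline markers these were 6 of 10 (median 0.04) and 2 of 10 (median -0.12). The parts of these tissue levels in the changes of the dod, dct and pud genes were not tested. In bulk RNA, fewer cells of a type and less RNA per cell cannot be told apart.

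Between bcat-1 RNAi and L4440, dod-3 was the only 1 of the 9 tested genes that passed, at day 2 and averaged over both days. At day 2, 0.419% of all tested genes passed, and averaged over both days 0.343%. At day 1 edgeR called 0 of the 9 and 0% of all genes. Even the target bcat-1 did not pass there (log2 -2.98, SE 0.93, unadjusted p = 0.00796, edgeR), though its groups did not overlap. A gene without a call at day 1 is therefore not shown to be unchanged. At day 2, with replicate 3 of bcat-1 RNAi included, the target had -0.21 (SE 0.86, adjusted p = 0.952, edgeR). Of the 9, 3 had an unadjusted p under 0.05 at day 1 (dod-3, pud-3 and pud-4), as had 297 of all 14567 genes, and DESeq2 called 16 genes and 0 of the 9. The difference between days also gave 0 calls among the 9 and 0% over all genes with edgeR. The same 3 genes had an unadjusted p under 0.05 there, as had 385 of all genes, and DESeq2 called 12 genes and 0 of the 9. At day 1 the treatments did not overlap for dod-3 (higher), pud-3 and pud-4 (lower), against 10.5% of all tested genes (5.85% higher, 4.65% lower). At day 2 the treatments did not overlap for dod-3, dod-19 and dct-17 (all higher), against 10.8% of all tested genes (6.52% higher, 4.24% lower). The median log2 value of the 9 was 0.01 at day 1 and 0.41 at day 2, against 0.01 and -0.02 over all genes. The value of dod-17 was 0.12 (SE 0.43) at day 1 and -0.58 (SE 0.41) at day 2, and that of dod-22 was -0.26 (SE 0.45) and 0.09 (SE 0.41), so a change of the size of these SEs was not detectable in either gene.

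**Figure D5:**
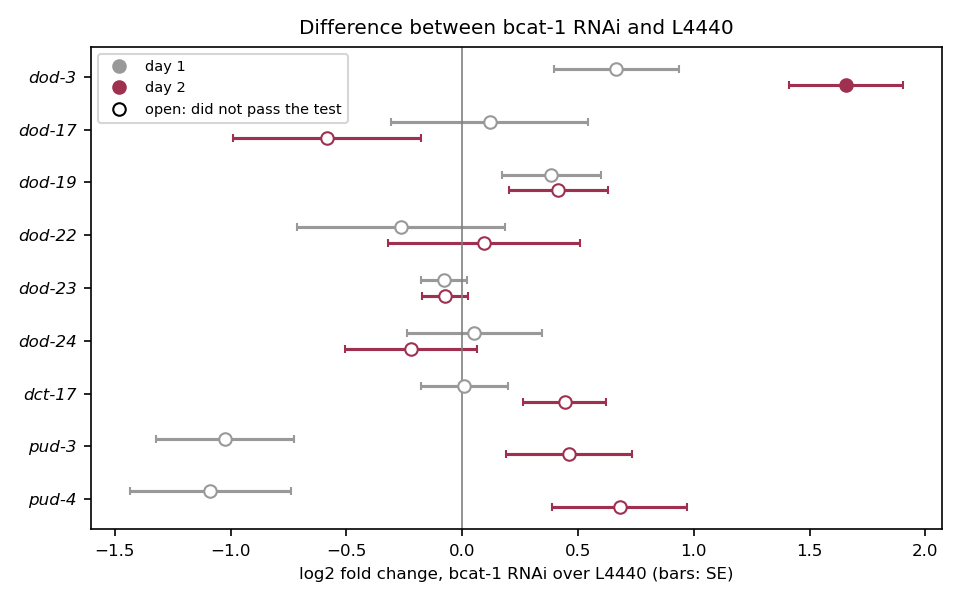
Difference between bcat-1 RNAi and L4440 (horizontal axis, log2 fold change with SE bars) of the 9 tested genes, in grey at day 1 and in red at day 2, with filled points for adjusted p under 0.05. The 1 filled point is dod-3 at day 2, at 1.66, and pud-3 and pud-4 lie left of 0 at day 1 and right of it at day 2.

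Across the 12 libraries the log2 levels of the 9 genes were positively correlated in all 36 pairs, with Pearson r from 0.44 to 1.00 and a median of 0.76. All pairs share the libraries and their split by age. Outside the pud pair the closest were pud-4 with dct-17 (0.95), pud-3 with dct-17 (0.94) and dod-24 with dod-17 (0.91), and the least alike were dod-22 and dod-23 (0.44).

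Among all tested genes, those with levels most like each member over the 12 libraries were mostly other genes than the 10. For dod-3 they were C34H4.2 (Pearson r 0.97), W02A2.9 (0.97) and ZK896.5 (0.97). For dod-17 they were the aspartyl protease gene asp-14 (0.94), F55G11.2 (0.94), which lies 7013 bases away, and F01D5.3 (0.93). For dod-19 they were the lysosomal aspartyl protease gene asp-4, F54E2.1 and K06G5.1 (each 0.97). For dod-22 they were F52C9.5 (0.97), C29A12.6 (0.96) and bus-8B (0.96). For dod-23 they were F35C5.1 (0.92), F20H11.4 (0.91) and the glutaminase gene glna-3 (0.88), and for dod-24 they were T22B7.7 (0.97), M02H5.8 (0.96) and F58B6.1 (0.94). For dct-17 they were the C-type lectin gene clec-65, C17H12.6 and hpo-6 (each 0.98). Next to its partner, pud-3 was most like Y25C1A.14 (0.95) and F08G2.5 (0.95), and pud-4 most like dct-17 (0.95) and F08G2.5 (0.95).

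The annotation holds 31 genes with dod, dct or pud symbols, and 12 of the 21 others were tested. Of those 12, none passed on L4440 with age, at day 1, at day 2 or averaged over both days, and 1 passed with age on bcat-1 RNAi (edgeR). In the 4 comparisons without a call 1, 1, 2 and 3 of the 12 had an unadjusted p under 0.05, and DESeq2 called 1, dod-20 at day 2. The gene with the age call was dod-20, which lies 7673 bases from dod-19. It stood at 0.417 ± 0.0526 CPM on L4440 day 1, 0.432 ± 0.0287 on bcat-1 day 1, 0.662 ± 0.188 on L4440 day 2 and 1.65 ± 0.358 on bcat-1 day 2 (mean ± SD, n = 3). All 3 bcat-1 day 2 libraries of dod-20 lay above the other 9. The rise of dod-20 under bcat-1 RNAi was 3.75-fold (log2 1.91, SE 0.27, adjusted p = 0.00260, edgeR) and passed in each of 20 alternative fits. The strict filter, at least 1 CPM and 50 counts in 3 libraries, left out dod-20, whose counts ran from 12 to 69. Its RNAi difference at day 2 was 1.29 (SE 0.26, adjusted p = 0.0839) and its rise on L4440 was 0.67 (SE 0.28, adjusted p = 0.226), and neither passed. The median of the 12 genes was 0.17 on L4440 and 0.23 on bcat-1 RNAi with age.

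Within 10 kb of the 10 genes lay 50 other protein-coding genes, of which 20 were tested. With age 3 of the 20 rose on L4440, and 6 rose and 1 fell on bcat-1 RNAi, beside medians of 0.30 and 0.36. Over all tested genes 1.01% rose on L4440, and 2.01% rose and 2.06% fell on bcat-1 RNAi. The neighbour counts are not separate from those above. They include F55G11.4 and F55G11.8 on both treatments, and K10D11.3 and dod-20 on bcat-1 RNAi. Next to dct-17, F35E12.6 rose 0.53 on L4440 (SE 0.09, adjusted p = 0.0151, edgeR) and 0.59 on bcat-1 RNAi (SE 0.09, adjusted p = 0.00432). The L4440 call of F35E12.6 was lost without any of the 3 L4440 day 1 libraries or L4440 day 2 replicate 3, with adjusted p up to 0.150 over all alternatives. Next to dod-19, at 1110 bases, irg-8, an infection response gene, had 0.82 on bcat-1 RNAi (SE 0.18, adjusted p = 0.0299), a call lost without replicate 2 or 3 of bcat-1 at either day, and 0.49 on L4440 (SE 0.18, adjusted p = 0.170). Next to dod-23, drd-1 was lower under bcat-1 RNAi at day 2 (log2 -1.02, SE 0.16, adjusted p = 0.0178), the 1 neighbour past the test between treatments. The day 2 call of drd-1 was lost without L4440 day 2 replicate 2 or 3 or bcat-1 day 2 replicate 2, with adjusted p up to 0.143 over all alternatives. With age drd-1 had -0.81 on bcat-1 RNAi (SE 0.16, adjusted p = 0.0157), a call lost without any 1 of the 3 bcat-1 day 1 libraries or without bcat-1 day 2 replicate 1 or 2. None of the 9 neighbours of dod-3 had enough reads to test.

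The transcripts of the insulin pathway itself showed no call by edgeR. Of 30 genes from the insulin receptor to DAF-16 and its cofactors, 26 were tested, and edgeR called 0 at day 1, at day 2 or with age on either treatment. In that order 0, 0, 1 (L4440) and 2 (bcat-1 RNAi) of the 26 had an unadjusted p under 0.05, and DESeq2 called 1, the arginine methyltransferase gene prmt-1 with age on bcat-1 RNAi. Their median log2 values were -0.06 at day 1, -0.10 at day 2, 0.01 with age on L4440 and -0.04 with age on bcat-1 RNAi. For daf-16 the log2 values were 0.02 (SE 0.07) and -0.05 (SE 0.07) between treatments at day 1 and day 2, and 0.05 and -0.02 with age. For the receptor gene daf-2 they were -0.20 (SE 0.37) and -0.41 (SE 0.37) between treatments, and 0.16 and -0.05 with age. The zinc finger gene pqm-1, whose product is known to act opposite DAF-16 on many targets, had -0.33 (SE 0.19) at day 1, 0.40 (SE 0.19) at day 2 and 0.55 (SE 0.19, adjusted p = 0.150) with age on bcat-1 RNAi. Together these values place pqm-1 lower at day 2 than at day 1 on L4440. Of 7 genes for the dauer hormone, its receptor and dauer insulin, 6 were tested and edgeR called 0 in these 4 comparisons. DESeq2 called dhs-16 with age on both treatments, and 1 of the 6 had an unadjusted p under 0.05 by edgeR in each of these age comparisons and 0 between treatments.

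Of 25 other genes known to be raised by DAF-16, 20 were tested, and 0 passed between treatments at either day or with age on L4440. With age on bcat-1 RNAi 4 rose, beside 2.01% of all tested genes. In the comparisons without a call 5 (day 1), 4 (day 2) and 8 (age, L4440) of the 20 had an unadjusted p under 0.05, and DESeq2 called 0, 1 (lys-7) and 2 (lys-7 and ftn-1). The 4 that rose were hsp-16.2, a small heat shock protein (log2 3.02, SE 0.68, adjusted p = 0.0306, edgeR), mtl-1, a metallothionein (2.49, SE 0.56, adjusted p = 0.0295), hil-1, a linker histone (1.08, SE 0.24, adjusted p = 0.0257), and lys-7, a lysozyme (1.05, SE 0.24, adjusted p = 0.0316). Their calls were not stable, since the list's count ran from 0 to 6 over the alternative fits. Each was lost without bcat-1 day 1 replicate 2 or 3 or bcat-1 day 2 replicate 1, with adjusted p up to 0.140 for hsp-16.2, 0.138 for mtl-1, 0.178 for hil-1 and 0.209 for lys-7 over all alternatives. The call of hsp-16.2 was also lost without bcat-1 day 1 replicate 1 or bcat-1 day 2 replicate 3, those of mtl-1 and hil-1 without bcat-1 day 1 replicate 1 or bcat-1 day 2 replicate 2, and that of lys-7 without L4440 day 1 replicate 2 or bcat-1 day 2 replicate 2. On L4440 mtl-1 had 0.98 with age (SE 0.52, adjusted p = 0.361). The superoxide dismutase gene sod-3, a standard reporter of DAF-16 activity, had -0.09 (SE 0.21) with age on L4440, -0.40 (SE 0.21, adjusted p = 0.338) on bcat-1 RNAi, and 0.20 and -0.11 between treatments at day 1 and day 2. The median of the 20 genes was 0.35 with age on L4440 and 0.69 on bcat-1 RNAi. Of 7 other genes known to fall when insulin signalling is low, 6 were tested, and 1, pept-1, passed with age on L4440 and 0 at day 1, at day 2 or with age on bcat-1 RNAi, where 1, 0 and 3 had an unadjusted p under 0.05 and DESeq2 also called 0.

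Since CUB-like genes belong to the intestinal immune response, its p38 MAP kinase pathway was read beside them. Of 9 genes of the PMK-1 cascade, all tested, 0 passed with age on L4440 (1 at an unadjusted p under 0.05, and 0 by DESeq2) and 1 on bcat-1 RNAi, the phosphatase gene vhp-1 (log2 0.54, SE 0.13, adjusted p = 0.0456, edgeR). The vhp-1 call was lost without any 1 of the 6 day 1 libraries, bcat-1 day 2 replicate 1 or 2, or L4440 day 2 replicate 2, with adjusted p up to 0.488 over all alternatives. Of 10 secreted effectors known to depend on PMK-1, 3 rose with age on L4440 and 5 on bcat-1 RNAi, with medians of 1.01 and 0.98, and 0 passed between treatments at either day (1 at an unadjusted p under 0.05 at each day, and 0 by DESeq2). By DESeq2 6 rose with age on each treatment. Over all tested genes edgeR called 1.01% higher with age on L4440 and 2.01% on bcat-1 RNAi. The effector list was chosen with earlier results of these data known, so nothing is read from its excess over these shares. The lysozyme gene lys-2 rose 1.07 (SE 0.15, adjusted p = 0.00460) on L4440 and 1.05 (SE 0.15, adjusted p = 0.00259) on bcat-1 RNAi. K08D8.5 rose 1.42 (SE 0.18, adjusted p = 0.00272) and 1.17 (SE 0.18, adjusted p = 0.00392), and the C-type lectin gene clec-85 rose 0.96 (SE 0.15, adjusted p = 0.00820) and 0.92 (SE 0.15, adjusted p = 0.00543). Rises of lys-2, K08D8.5 and clec-85 passed in each of 21 alternative fits on both treatments. On bcat-1 RNAi irg-6 (1.54, SE 0.36, adjusted p = 0.0351) and sysm-1 (1.24, SE 0.28, adjusted p = 0.0308) also passed. The irg-6 call was lost without any 1 of the 3 bcat-1 day 1 libraries, L4440 day 1 replicate 1 or 2, bcat-1 day 2 replicate 1 or 3, or L4440 day 2 replicate 3, with adjusted p up to 0.147 over all alternatives. The sysm-1 call was lost without replicate 2 or 3 of bcat-1 at either day, with adjusted p up to 0.151.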

How the data were processed

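Per the submitters' processing notes, bases were called with bcl2fastq 1.8.4, reads aligned with STAR 2.4.1d to WBcel235 and counted with featureCounts 1.4.6-p4, and per the labels' protocols libraries were made from total RNA with the TruSeq RNA kit v2. The authors deposited whole-number read counts per gene, the values used here; their RPKM table was not used, since its divisors did not follow the libraries. The strand setting and the treatment of multiply mapped reads are not given in the sources used here. Symbols and positions come from Ensembl annotation 115.

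Counts were fitted in R 4.3.3 with edgeR 4.0.16 (filterByExpr by group, 14567 genes; TMM; 1 quasi-likelihood model of 4 group means, 8 residual degrees of freedom). Tests were two-sided, with Benjamini-Hochberg adjustment over all tested genes and a threshold of 0.05; "passed", "rose", "fell" and "called" refer to it. SE is the log2 fold change divided by the square root of F. CPM use TMM-scaled library sizes, and correlations use log2 CPM with a prior count of 2. Depth ran from 29291731 to 43855795 counts. No replicates were duplicates: over 12 within-group pairs the chi-square per gene was 11.3 or more. The test was tested on simulated data for age on L4440. It called 43.4% of 2-fold and 89% of 4-fold changes, and 3.65% of its calls were false.

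The members and gene lists were chosen with earlier results of these data known. Named genes were the members, other dod, dct and pud genes past the test, the 3 tested genes most correlated with each member, neighbours within 10 kb past the test, and up to 4 called genes per list. A 5th called effector and the called intestine markers were named after their values were seen. Alternatives were RLE, upper-quartile or no scaling factors, DESeq2 1.42.0, other count filters, fits of the compared groups alone, leaving out each library, both libraries with over 5% rRNA, or the rRNA genes.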

Additional observations from a re-analysis of the deposited data

How the results depend on the processing

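Over the alternative fits of 40 results for the 9 tested genes (RNAi at day 1 and day 2 and age on each treatment for all 9, the average for dod-3, and the difference between days for dod-3, pud-3 and pud-4), 763 of 836 values kept their direction and side of the threshold, 51 lost a call, 4 gained one and 18 changed sign; each change of sign concerned an RNAi difference that did not pass. The cause of these changes was not tested. With age on L4440 the number of genes called was 7, and 4 to 8 when 1 library was left out (4 without L4440 day 1 replicate 2 or 3); on bcat-1 RNAi it was 7, and 4 to 7 when 1 was left out (4 without bcat-1 day 1 replicate 2 or 3). Library size only gave 4 on bcat-1 RNAi, and it moved the median of all genes by -0.101 there and by -0.119 in the RNAi difference at day 2. At day 2 the call of dod-3 was lost (0 called) with library size only, with only the compared groups, where no gene at all was called, and without both libraries rich in rRNA; without 1 library the count was 0 to 1. Averaged over both days it was lost (0 called) with library size only and without both libraries rich in rRNA, and the count was 0 to 1 without 1 library. At day 1 and for the difference between days the count stayed 0 in all alternatives run; fits of only the compared groups give no value for the average or the difference.

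Signs changed as follows. The day 1 value of dct-17 was -4.10e-04 with library size only, -0.00118 by DESeq2, -0.00966 with only the compared groups and -0.00863 without both libraries rich in rRNA. The day 2 value of dod-24 was 0.12 without those 2 libraries. Without 1 library, the day 1 value ran from -0.10 to 0.23 for dct-17, from -0.0225 to 0.263 for dod-17, from -0.590 to 0.0629 for dod-22, from -0.13 to 0.00115 for dod-23 and from -0.16 to 0.20 for dod-24, and the day 2 value from -0.40 to 0.33 for dod-22 and from -0.41 to 0.23 for dod-24.

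Over all genes, DESeq2 called 184 at day 2 against 61 by edgeR, 157 against 50 averaged over both days, 1006 against 335 with age on L4440 and 1003 against 593 on bcat-1 RNAi; no filter on low counts called 867 with age on L4440, and leaving out 1 library gave 79 to 1017 there and 229 to 657 on bcat-1 RNAi. Fits of other families, neighbours and lists under the same alternatives were added after seeing the data. No paired analysis was possible because the labels give no replicate numbers. Low counts limit dod-21, dod-22, dod-17 and, at day 1, pud-4.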
